A study of Mus musculus with 2 samples.

Results

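The cytotoxic granule is the store from which killer lymphocytes release the proteins that kill a target cell, and 10 of its genes are described here in leukocytes of mouse mammary tumours. The genes were chosen by name, with earlier results of these data known. They are the granzyme genes Gzma, Gzmb, Gzmc, Gzmd, Gzmf and Gzmk and the perforin gene Prf1. Nkg7, Ctsw and Cst7 complete them and encode further proteins of the granule or of its protease system. All 10 were found among the 32285 genes of both count matrices. The tumours grew from 4T1, a transplantable mammary carcinoma line of the BALB/c mouse strain, and the series asks whether the PML protein of triple-negative tumours suppresses immunity. BALB/c mice aged 6 to 8 weeks received 4T1 cells in 50 µl of PBS in the mammary fat pad. In the first group the injected cells expressed a short hairpin RNA against Pml (shPml), and in the second a control hairpin (shCTRL). Tumours were taken at day 14, and CD45-positive cells, the leukocytes, were sorted and counted with 10x Chromium droplets. Each group had 1 library. The labels give neither the number of mice behind a library nor their sex. The hairpin acts in the tumour cells, so Pml in sorted leukocytes does not check the labels.

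Granzymes are serine proteases that cytotoxic T cells and natural killer (NK) cells store in acidic granules and release onto a target. Perforin forms pores in the target membrane through which granzymes enter. Granzyme B cleaves caspase substrates, granzyme A has tryptase activity, and granzyme K is a tryptase like granzyme A. Cst7 encodes cystatin F, an inhibitor of the cathepsins that activate progranzymes, Ctsw encodes a cathepsin of killer cells, and Nkg7 encodes a granule membrane protein needed for efficient degranulation.

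The granzyme genes lie in clusters (GRCm38 build, GENCODE annotation). Gzmb (ENSMUSG00000015437) is at chr14:56258838-56262260 on the minus strand, at the edge of a block of 7 granzyme genes that spans 144.6 kb and also holds Gzmc, Gzmd and Gzmf. Gzma (ENSMUSG00000023132, chr13:113093825-113100981, minus strand) lies 70.6 kb from Gzmk. Prf1 (ENSMUSG00000037202) is at chr10:61297833-61304680 and Nkg7 (ENSMUSG00000004612) at chr7:43437073-43438249, both on the plus strand. The RefSeq table (GRCm38.p6) held a promoter for 9 of the 10 genes, all but Ctsw. The 250 bases before the RefSeq start are printed for the 4 genes on which the results below turn, 5′ to 3′ on the gene's strand. Capitals mark matches to TGTGGT (the RUNX core), TGANTCA (AP-1) and TCACACC (T-box), searched on both strands.
Gzmb: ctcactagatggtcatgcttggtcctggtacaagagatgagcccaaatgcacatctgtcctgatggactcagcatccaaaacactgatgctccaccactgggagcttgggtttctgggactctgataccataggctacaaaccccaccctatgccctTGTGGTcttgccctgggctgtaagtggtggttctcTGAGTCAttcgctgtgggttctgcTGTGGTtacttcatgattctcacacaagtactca
Gzma: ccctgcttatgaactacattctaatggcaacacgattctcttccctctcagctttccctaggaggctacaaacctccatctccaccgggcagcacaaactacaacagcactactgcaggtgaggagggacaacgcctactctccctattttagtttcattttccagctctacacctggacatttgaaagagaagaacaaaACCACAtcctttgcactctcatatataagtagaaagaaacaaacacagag
Prf1: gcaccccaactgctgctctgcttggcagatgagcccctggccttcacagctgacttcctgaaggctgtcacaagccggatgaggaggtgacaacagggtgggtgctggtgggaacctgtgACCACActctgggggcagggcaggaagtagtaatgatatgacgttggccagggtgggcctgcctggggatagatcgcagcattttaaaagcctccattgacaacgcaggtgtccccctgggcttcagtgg
Nkg7: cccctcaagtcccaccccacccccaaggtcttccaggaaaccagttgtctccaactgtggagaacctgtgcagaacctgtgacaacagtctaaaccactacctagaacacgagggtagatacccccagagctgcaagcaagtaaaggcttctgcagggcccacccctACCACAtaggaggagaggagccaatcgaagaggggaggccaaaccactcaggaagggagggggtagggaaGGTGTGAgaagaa
These windows are chr14:56262335-56262584 for Gzmb, chr13:113100982-113101231 for Gzma, chr10:61297586-61297835 for Prf1 and chr7:43436888-43437137 for Nkg7. The Gzmb start in RefSeq lies upstream of the one in GENCODE, and those of Nkg7 and Gzmk lie downstream of it. The Nkg7 window thus reaches into the GENCODE gene, where its T-box match lies. Of the 9 promoters, 8 held a RUNX match, against 14.0% of all 32851 RefSeq promoters cut to the same length. Among the 8, Gzmc, Gzmd and Gzmf are neighbours in 1 block with alike promoter sequences and 2 RUNX matches each at similar places. They do not count as independent promoters. An AP-1 match was found in 1 of 9 (Gzmb, 58 to 52 bases before its start) against 6.75% of all promoters. T-box matches were found in 2 of 9 (Nkg7 and Gzmk) against 3.33%. None of the 15 matches overlapped another. A match is a run of letters and says nothing here of binding.

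Levels are UMIs of a gene scaled to a class total of 1000000 UMIs (CPM), a UMI (unique molecular identifier) being 1 counted transcript. After filtering, the shPml library held 1749 cells with a median of 1300 UMIs and the shCTRL library 850 cells with a median of 4040. T cells had a UMI of Cd3d, Cd3e or Cd3g. CD8 T cells (Cd8a or Cd8b1, no Cd4, no Foxp3) numbered 708 in shPml and 235 in shCTRL, CD4 T cells outside the regulatory class 35 and 214, and regulatory T cells (Foxp3) 17 and 36. T cells with neither or both co-receptors numbered 394 and 205, a class that also took any T cell with both Cd8a or Cd8b1 and Foxp3 UMIs. B cells numbered 53 and 52 and neutrophils 140 and 14. The CD8 T gate held both CD8 markers and all 3 Cd3 genes in both libraries. It also held neutrophil marker UMIs (5 of 6 markers and 199 CPM in shPml, 3 of 6 and 43.7 CPM in shCTRL), epithelial ones (3 of 4 and 20.7 CPM, 2 of 4 and 6.24 CPM), macrophage ones (3 of 7 and 16.4 CPM, 2 of 7 and 3.12 CPM) and B cell ones (3 of 4 and 9.49 CPM, 4 of 4 and 33.3 CPM). NK markers stood at 104 CPM (5 of 7, with Ncr1 at 0 UMIs) and 85.3 CPM (6 of 7). Without cells carrying a UMI of S100a8, S100a9, Lyz2, Cd79a or Cd74, the CD8 T result given further on was as large (median log2 ratio 1.28 against 1.14). These are the cells holding UMIs of other cell types further on. That filter used no epithelial or NK marker, and of the macrophage markers only Lyz2. The NK gate (Ncr1, Klra7 and Tyrobp at least 2 UMIs together, no Cd3 and no Lyz2 UMI) went against its label in both libraries, more so in shPml. In shPml, S100a9, a neutrophil gene, was found in 24 of its 31 cells, and 28 entered through Tyrobp alone. In shCTRL, 11 of its 20 cells did, and neutrophil markers stood at 4340 CPM against 2855 CPM for NK markers. Levels of the whole gate are thus not those of NK cells alone, and its make-up differed between the libraries. Cells of the gate with an NK receptor UMI (Ncr1, Klra7, Klrb1c, Klre1 or Klra8) numbered 3 in shPml and 9 in shCTRL.

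A further fact touches every result on CD8 T cells. The libraries shared 266 cell barcodes, and 103 of the 235 shCTRL CD8 T cells and 167 of the 708 shPml CD8 T cells carried such a barcode. In 90 of those 103 shCTRL cells the same barcode had more UMIs in the shPml library. Y-linked transcripts were found in 157 shPml and 11 shCTRL CD8 T cells, and Xist, transcribed in female cells, in 22 and 127. No Y-linked UMI was found in CD4 T cells, regulatory T cells, the NK gate, neutrophils or B cells of either library. In shPml, Xist was found in 20 of 35 CD4 T cells, 15 of 17 regulatory T cells and 44 of 53 B cells. Comparisons of CD8 T cells between the libraries or with other classes thus also differ in this mix, whose part was not tested. All 11 shCTRL CD8 T cells with Y-linked UMIs had a shared barcode. The main ratios are therefore also given without shared barcodes. The intervals given are at 95% and reflect counting error alone. They are exact, apart from those of a difference between shares, which are approximate. With 1 library per group there is no replicate check, and no test between the groups is possible. In addition, fewer cells that use a gene and less RNA per cell cannot be told apart in a summed level.

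Gzmb was high in CD8 T cells and regulatory T cells and near 0 in neutrophils and B cells. In shPml CD8 T cells it stood at 903 CPM (849 to 959; 1046 UMIs), in regulatory T cells at 673 CPM (507 to 875; 55 UMIs) and in CD4 T cells at 78.2 CPM (41.6 to 134; 13 UMIs). Only 2 UMIs were counted in 140 shPml neutrophils (3.99 CPM, 0.483 to 14.4) and 0 in 53 shPml and 52 shCTRL B cells. T cells with neither or both co-receptors (704 CPM, 640 to 774) and the NK gate (141 CPM, 82.0 to 225) lay between. The intervals of CD8 T and regulatory T cells overlapped, and so did those of the NK gate and CD4 T cells. In the shCTRL library the order differed, from the NK gate at 353 CPM (255 to 475) through regulatory T cells at 234 CPM (176 to 307) and CD8 T cells at 161 CPM (137 to 189) to T cells with neither or both co-receptors at 107 CPM (85.8 to 132) and CD4 T cells at 33.5 CPM (23.5 to 46.4). There the NK gate and regulatory T cells overlapped, as did regulatory and CD8 T cells.

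Gzma followed another order. It was found in CD8 T cells at 375 CPM (340 to 412) in shPml and 62.4 CPM (47.6 to 80.3) in shCTRL. The NK gate held 803 CPM (652 to 980) and 1608 CPM (1391 to 1850), with Gzma found in 2 and 4 of its cells, all with an NK receptor UMI. Among the gate's cells with such a UMI the levels were 5475 CPM (4440 to 6679) and 4488 CPM (3882 to 5163), which overlap. Gzma had 0 UMIs in neutrophils, in B cells and in the 17 and 36 regulatory T cells, which by a floor of 3 counts allows a Gzma UMI in up to 17.6% and 8.33% of such cells, and 2 and 3 UMIs in CD4 T cells. Gzmk was found in CD8 T cells, with 39 UMIs (33.7 CPM, 23.9 to 46.0) in shPml and 4 (4.16 CPM, 1.13 to 10.7) in shCTRL. The only other class with Gzmk was that of shPml T cells with neither or both co-receptors, with 13 UMIs, and the NK gate had 0.

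Prf1 was highest in the NK gate of the shCTRL library, at 230 CPM (153 to 332), above the 58.0 CPM (23.3 to 119) of the shPml gate. Cells that entered through Tyrobp alone, with 0 Prf1 UMIs, made up 28 of 31 shPml and 11 of 20 shCTRL cells of the gate. Among its cells with an NK receptor UMI Prf1 stood at 641 CPM (426 to 927) in shCTRL and 395 CPM (159 to 814) in shPml, which overlap. CD8 T cells stood at 76.0 CPM (60.9 to 93.6) and 61.4 CPM (46.7 to 79.1), while CD4 T cells held 2 and 15 Prf1 UMIs. Prf1 also had 4 UMIs in shPml B cells (at most 33.3 CPM) and 1 in shCTRL B cells, and the CD4 T levels (at most 43.4 and 23.0 CPM) overlapped that background. Nkg7, in contrast, separated CD8 T cells (1345 CPM in shPml, 611 in shCTRL) from CD4 T cells (78.2 and 74.5 CPM), and B cells held 0 and 1 Nkg7 UMIs. Ctsw stood at 262 CPM (234 to 294) and 281 CPM (248 to 316) in CD8 T cells and at 72.1 and 73.5 CPM in CD4 T cells. Cst7 stood at 236 CPM (208 to 265) and 115 CPM (at most 139) in CD8 T cells, 48.1 and 33.5 CPM in CD4 T cells, and 73.4 and 111 CPM in regulatory T cells.

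**Figure D1:**
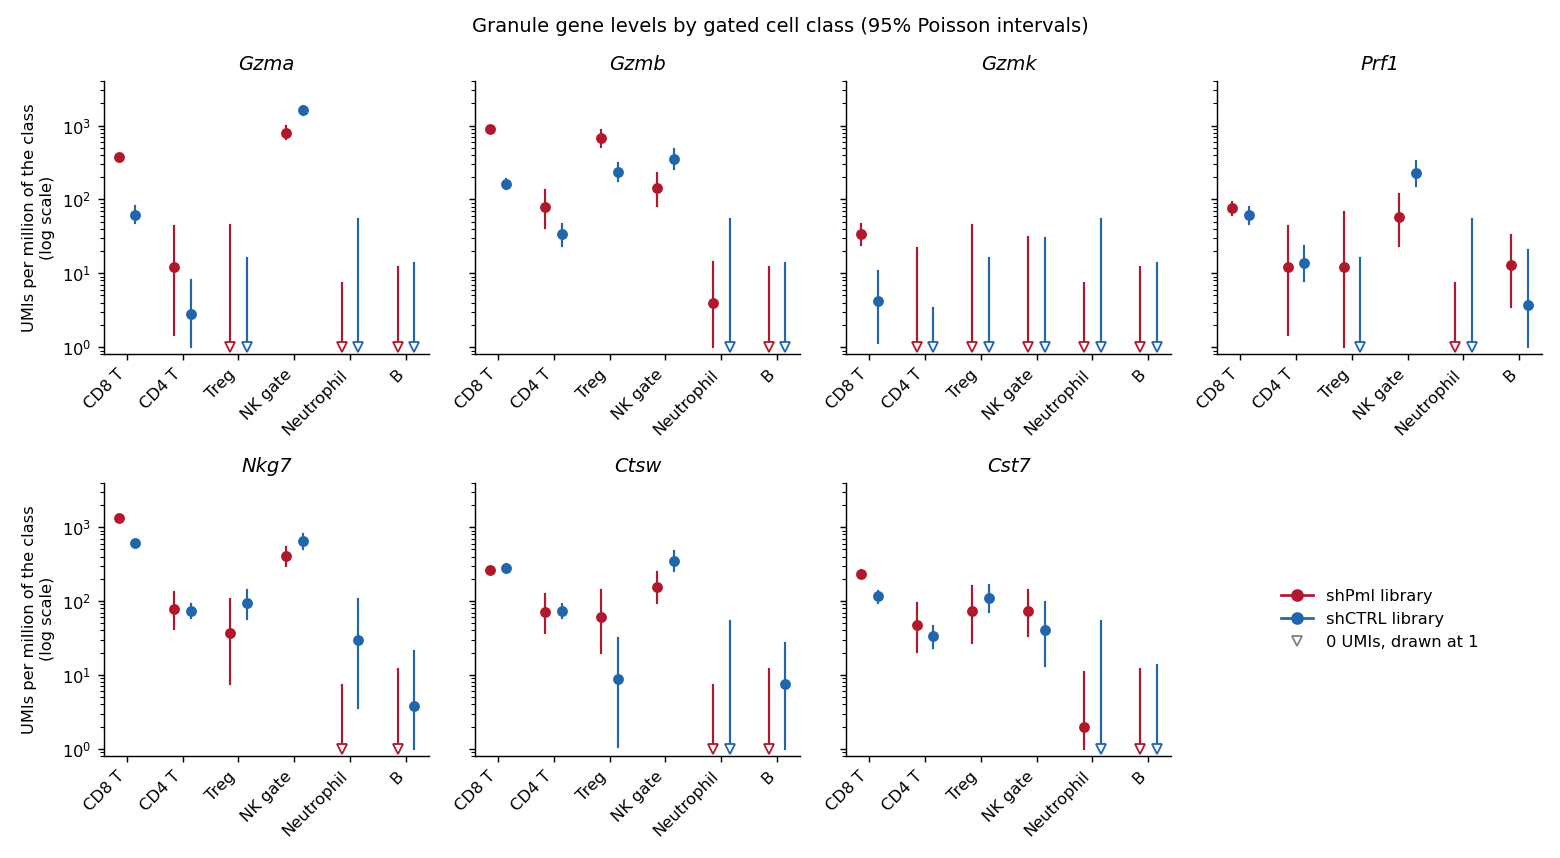
Level of 7 granule genes (CPM, log axis) in the gated cell classes of the shPml library (red) and the shCTRL library (blue), with exact 95% Poisson intervals and open triangles for 0 UMIs. CD8 T cells stand above CD4 T cells for all 7 genes in the shPml library, and neutrophils and B cells hold at most 4 UMIs of any of them.

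Set against CD4 T cells of the same library, 6 of the 7 members with at least 20 summed UMIs stood 2-fold or more higher in shPml CD8 T cells, where 13.2% of all 6069 genes did so. The median log2 ratio of these members was 2.66, against -0.01 over all genes. Gzmb stood at log2 3.53 (2.75 to 4.44) and Nkg7 at 4.10 (3.33 to 5.02). Without shared barcodes Gzmb stood at 2.44 (1.65 to 3.36) and Nkg7 at 3.97 (3.08 to 5.03). Gzmk, with 39 and 0 UMIs, was at least 1.87-fold higher when the CD4 T count is set to a floor of 3. In the shCTRL library 6 of 6 members stood 2-fold or more higher (3.75% of 7325 genes), with a median of 2.20 and Gzmb at 2.27 (1.74 to 2.83). Without shared barcodes 4 of 4 members stood higher there (2.58% of genes), with a median of 2.19, but Gzmb had too few UMIs to be counted, with 1 UMI in CD8 T and 15 in CD4 T cells (log2 -3.51, -8.90 to -0.81).

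Between the groups, CD8 T cells of the shPml library held more Gzma, Gzmb, Gzmk, Nkg7 and Cst7 than those of the shCTRL library, while Prf1 and Ctsw lay close together. Gzmb stood at 903 CPM against 161 CPM, a log2 ratio of 2.49 (2.24 to 2.74). Gzma stood at 375 against 62.4 CPM, a log2 ratio of 2.59 (2.19 to 3.0). Gzmk stood at 33.7 against 4.16 CPM, with a wider interval around its log2 ratio of 3.02 (1.55 to 4.96). All 3 granzyme intervals lay above a 2-fold difference. Perforin lay apart from the granzymes: the log2 ratio of Prf1 was 0.31 (-0.18 to 0.81), an interval that holds 0. With a stricter limit of 5% mitochondrial UMIs it was 0.91 (0.21 to 1.63), above 0. Of the remaining genes, Nkg7 had a log2 ratio of 1.14 (0.999 to 1.28), Cst7 of 1.03 (0.71 to 1.36) and Ctsw of -0.10 (-0.34 to 0.14). Of the 7 members with at least 20 summed UMIs, 5 were thus 2-fold or more higher and 0 lower, beside 12.2% and 10.1% of all 7295 genes. Their median log2 ratio was 1.14, against 0.13 over all genes. Of the other 3 members, Gzmc had 3 and 0 UMIs in CD8 T cells and Gzmd and Gzmf had 0 in both.

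Leaving out the shared barcodes left 541 shPml cells (median 1223 UMIs) and 132 shCTRL cells (median 5372). Almost all granzyme counts of the shCTRL cells went with them. Gzmb had 1 UMI left there (1.42 CPM, 0.0358 to 7.88) and 427 UMIs in shPml (591 CPM, 537 to 650), a log2 ratio of 8.71 (6.22 to 14.0). Gzma had 172 UMIs in shPml and 4 in shCTRL, a log2 ratio of 5.40 (4.01 to 7.29), and Gzmk 30 and 2, a ratio of 14.7 (3.72 to 127). Prf1 stood at 69.2 against 58.0 CPM (log2 0.26, -0.37 to 0.89), and Ctsw at 282 against 265 CPM (log2 0.09, -0.20 to 0.39). Nkg7 stood at 1310 against 512 CPM (log2 1.35, 1.18 to 1.53) and Cst7 at 242 against 70.7 CPM (log2 1.78, 1.32 to 2.26). The shCTRL cells with barcodes of their own thus held Prf1, Ctsw and Nkg7 but 7 granzyme A, B and K UMIs in all. Again 5 of 7 members were 2-fold or more higher and 0 lower, beside 17.9% and 10.7% of 6203 genes, and the median was 1.78 against 0.18 over all genes.

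**Figure D2:**
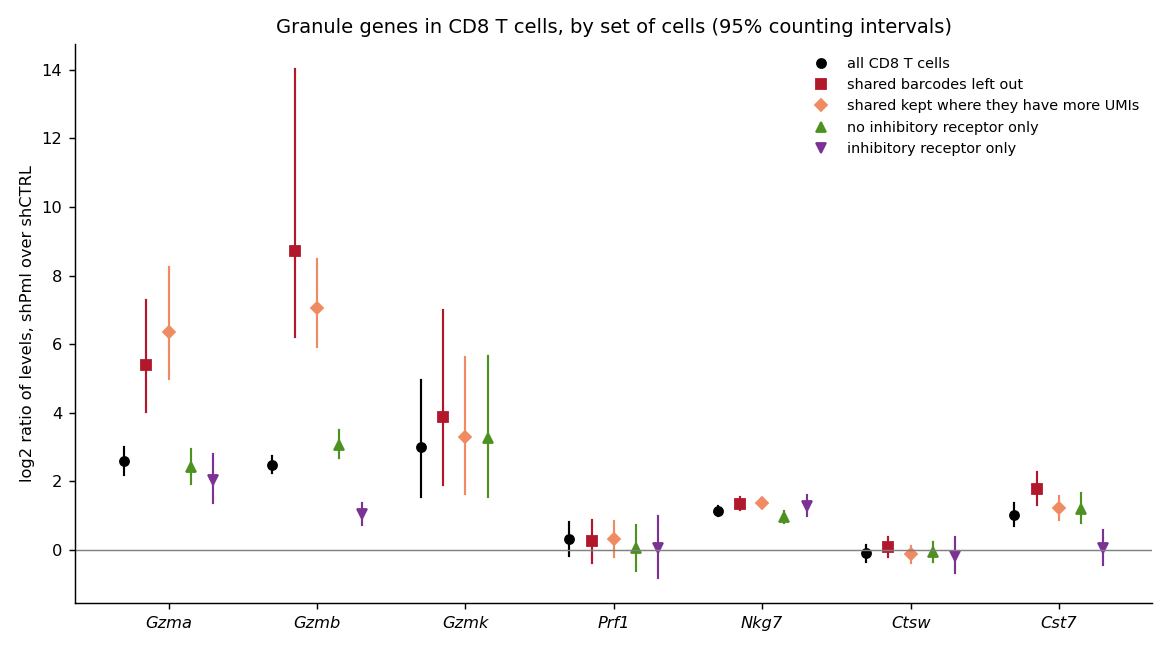
Log2 ratio of the level in the shPml library over that in the shCTRL library for 7 granule genes in CD8 T cells, for all cells and for 4 other sets of cells, with exact 95% counting intervals. Gzma and Gzmb move farthest between sets, with Gzmb from 2.49 in all cells to 8.71 without shared barcodes and 1.04 in cells with an inhibitory receptor UMI, while Prf1 lies between 0.05 and 0.31 in the sets drawn.

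The shared barcodes were then looked at on their own. In the 90 shCTRL CD8 T cells whose barcode had more UMIs in shPml (median 957 UMIs), Gzmb stood at 1648 CPM (1394 to 1934; 149 UMIs). In the 160 shPml CD8 T cells of that kind it stood at 1439 CPM (1327 to 1557), and the intervals overlap. Gzma stood at 619 and 609 CPM in these cells, and Nkg7 at 1482 and 1418 CPM. The 13 shCTRL cells whose barcode had more UMIs in shCTRL, all 13 with Xist, held 5 Gzmb UMIs (30.4 CPM) and 0 Gzma UMIs. Of the 155 Gzmb UMIs in shCTRL CD8 T cells, 154 sat in shared barcodes. Among the 103 shared shCTRL barcodes, 47 had a Gzmb UMI in shCTRL, and 44 of these had one in shPml as well. Keeping each shared barcode only in the library where it had more UMIs gave a Gzmb log2 ratio of 7.04 (5.92 to 8.49) and a member median of 1.37. Why barcodes are shared was not tested.

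Shares of cells with a UMI depend on depth, so each cell was thinned to 500 UMIs. Gzmb was then found in 27.5% of shPml CD8 T cells (195 of 708, 24.3 to 31.0%) and 14.5% of shCTRL ones (34 of 235, 10.2 to 19.6%). Before thinning the shares were 39.8% and 20.4%. Without shared barcodes they were 24.2% (20.7 to 28.1%) and 0.758% (1 of 132, 0.0192 to 4.15%). The background share after thinning was 0.714% in shPml neutrophils (1 of 140, median 3338 UMIs before thinning) and 0 of 53 in shPml B cells (median 4020). The unshared shCTRL share is at that background, and the shPml share is not. Nkg7 was found in 48.2% (44.4 to 51.9%) and 32.8% (26.8 to 39.2%) of CD8 T cells and in 0 of the shPml neutrophils and B cells. Prf1 was found in 34 of 708 and 6 of 235 CD8 T cells (3.35 to 6.65% and 0.943 to 5.47%, which overlap), against 1 of 53 shPml B cells.

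**Figure D3:**
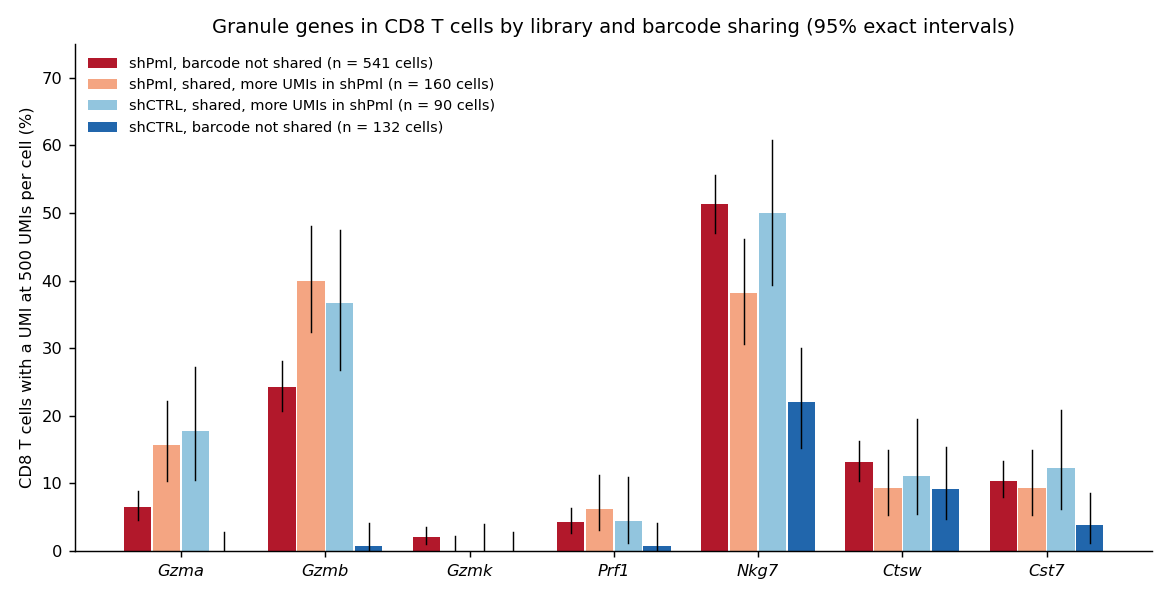
Share of CD8 T cells with a UMI of each gene after thinning to 500 UMIs per cell (percent), by library and by whether the barcode is shared, with exact 95% binomial intervals. Gzmb bars stand at 24.2% in unshared shPml cells and 36.7% in shCTRL cells whose barcode has more UMIs in shPml, against 0.758% in unshared shCTRL cells.

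CD8 T cells were next split by inhibitory receptors, surface proteins such as PD-1 that T cells gain after repeated antigen contact. A UMI of Pdcd1, Havcr2 or Lag3 was found in 243 of 708 shPml cells (median 1709 UMIs, against 1307 in those without) and 42 of 235 shCTRL cells (median 1404, against 4618), before any thinning. Within shPml, Gzmb stood at 1304 CPM (1204 to 1409) in cells with an inhibitory receptor UMI and 613 CPM (555 to 675) in cells without, a log2 ratio of 1.09 (0.91 to 1.27). Gzma stood at 520 against 269 CPM (log2 0.95, 0.67 to 1.23), with 70 of the 253 UMIs in 1 cell, and Prf1 at 103 against 56.5 CPM (log2 0.86, 0.23 to 1.51). Nkg7 (log2 0.43, 0.29 to 0.58) and Cst7 (log2 0.56, 0.21 to 0.92) differed less, and the intervals of Ctsw (log2 -0.09, -0.43 to 0.25) and Gzmk (log2 -0.21, -1.25 to 0.78) hold 0. Gzmb alone of 7 members was 2-fold or more higher, 1 of 7 beside 2.85% of 5610 genes. Shared barcodes made up 99 of the 243 and 68 of the 465 cells, and without them the log2 ratio was 0.51 for Gzmb (0.21 to 0.80; 753 against 530 CPM), 0.15 for Gzma (-0.36 to 0.63) and 0.56 for Prf1 (-0.36 to 1.44). The same contrast in shCTRL, of 42 against 193 cells, had Gzmb at 635 against 72.8 CPM (log2 3.12, 2.64 to 3.62) and 3 of 6 members 2-fold or more higher, beside 16.1% of 5028 genes. There 37 of the 42 and 66 of the 193 cells had a shared barcode, so that contrast also sets shared against unshared barcodes. Only 5 cells with an inhibitory receptor UMI were unshared, too few to repeat it without shared barcodes.

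Between the groups, Gzma and Gzmb stood higher in shPml on both sides of this split. In cells with an inhibitory receptor UMI Gzmb stood at 1304 CPM in shPml against 635 CPM (514 to 775) in shCTRL, a log2 ratio of 1.04 (0.73 to 1.36). Gzma there had a log2 ratio of 2.05 (1.38 to 2.81) and Nkg7 of 1.29 (0.98 to 1.61), while Cst7, at 290 against 278 CPM, had one of 0.06 (-0.44 to 0.60). Of 6 members 3 were 2-fold or more higher and 0 lower, beside 7.68% and 6.44% of 3943 genes, and the median was 0.55. In cells without such a UMI Gzmb stood at 613 against 72.8 CPM (55.4 to 93.9), a log2 ratio of 3.07 (2.68 to 3.49). There 4 of 7 members were 2-fold or more higher and 0 lower (14.8% and 9.67% of 6357 genes), with a median of 1.205. Prf1 lay close to 0 on both sides, at log2 0.05 (-0.80 to 0.99) with and 0.06 (-0.61 to 0.72) without. Leaving out shared barcodes as well, cells without an inhibitory receptor UMI had a Gzmb log2 ratio of 8.50 (6.01 to 13.8), with 1 UMI in shCTRL, and a Prf1 ratio of 0.03 (-0.69 to 0.73). Of the 42 shCTRL cells with an inhibitory receptor UMI 37 had a shared barcode, and the other 5 held 0 Gzma, Gzmb, Gzmk and Prf1 UMIs. The share of cells with an inhibitory receptor UMI moves with the group, and its part in the CD8 T difference was not tested.

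Among shPml CD8 T cells, 96 held at least 2 UMIs of proliferation genes after thinning. Gzmb stood at 903 CPM in these cycling cells and 903 CPM in the other 612 (log2 0.00, -0.25 to 0.24). Gzma stood at 767 against 301 CPM (log2 1.35, 1.05 to 1.64), but 70 of its 140 UMIs in cycling cells came from 1 cell. Cst7 was lower, at 153 against 251 CPM (log2 -0.71, -1.33 to -0.14). Without shared barcodes Gzma stood at log2 2.06 (1.56 to 2.54), and the intervals of Gzmb (0.32, -0.14 to 0.75) and Cst7 (-0.63, -1.66 to 0.25) held 0. The median over 7 members was 0.00, and 1 of 7 was 2-fold or more higher (7.01% of 5610 genes). No cell cycle phase was called.

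Cells with sex-linked transcripts also differed. In shPml CD8 T cells with a Y-linked UMI and no Xist (157 cells) Gzmb stood at 1001 CPM (888 to 1125). In those with Xist and no Y-linked UMI (22 cells) it stood at 109 CPM (56.6 to 191; 12 UMIs), a log2 ratio of 3.19 (2.37 to 4.16). All 70 Gzma UMIs of the 22 cells came from 1 cell, and the 16 of them with unshared barcodes held 0. The member median was -0.23 (0.21 over all genes), and 1 of 6 members was 2-fold or more higher, beside 18.3% of 2676 genes. The sign of that median turned to 0.92 without shared barcodes, where Gzmb stood at log2 2.59 (1.48 to 3.95), to 0.82 without the top cell of each set, and to 1.10 without cells holding UMIs of other cell types. Between the groups, Xist CD8 T cells held Gzmb at 109 CPM in shPml and 7.46 CPM in shCTRL (6 UMIs in 127 cells), Prf1 at 155 and 64.6 CPM (log2 1.26, 0.38 to 2.08) and Nkg7 at 1122 and 540 CPM. Of the 17 Prf1 UMIs in shPml, 10 came from 1 cell. The median log2 ratio of 5 members in Xist cells was 1.06, with 3 of 5 being 2-fold or more higher (8.21% of 4860 genes). Among the 3 is Gzma, whose shPml UMIs there come from the 1 cell. Without shared barcodes (16 and 114 cells) Prf1 had a log2 ratio of 0.34 (-1.19 to 1.59) and Nkg7 of 0.64 (0.22 to 1.03), and 0 of 4 members were 2-fold or more higher, beside 6.89% of 3932 genes.

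Co-detection was taken at 500 UMIs per cell in shPml CD8 T cells. Gzmb was found in 53.3% of cells with Gzma (32 of 60, 40.0 to 66.3%) and 25.2% of cells without it (21.9 to 28.7%). Without shared barcodes the shares were 42.9% (26.3 to 60.6%) and 22.9% (19.3 to 26.8%). Prf1 was found in 8.72% of cells with Gzmb (17 of 195, 5.16 to 13.6%) and 3.31% of cells without it (17 of 513, 1.94 to 5.25%). Perforin and granzyme B transcripts thus met in few cells at this depth. The difference was 5.40 percentage points (1.35 to 10.5), and 4.46 (-0.0209 to 10.6) without shared barcodes. Both intervals are approximate, and the latter only just holds 0. Nkg7 was found in 59.0% of Gzmb cells (51.7 to 66.0%) and 44.1% of the others (39.7 to 48.5%), which do not overlap, nor did they without shared barcodes (65.6% against 46.8%). Cst7 went the other way, at 7.69% against 11.1%, with overlapping intervals. Of the granzymes, 161 cells held Gzmb alone, 28 Gzma alone, 32 both and 9 Gzmk alone. Gzmk and Gzma met in 0 of 708 cells, which by the floor of 3 allows up to 0.424%. Gzmk was found in 11 cells in all at this depth.

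**Figure D4:**
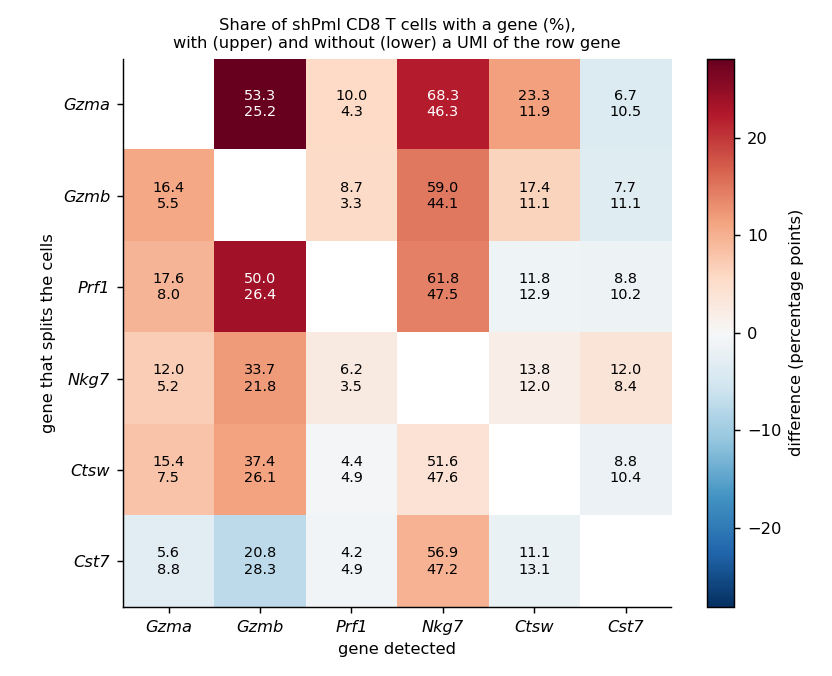
Share of shPml CD8 T cells (percent, thinned to 500 UMIs) in which the column gene was found, among cells with (upper number) and without (lower number) a UMI of the row gene; colour is the difference in percentage points. The Gzma row and the Gzmb column meet at 53.3% against 25.2%, and the Cst7 row and Gzmb column at 20.8% against 28.3%.

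At least 1 of the 10 members was found in 68.8% of shPml CD8 T cells and 48.5% of shCTRL ones at 500 UMIs, and at least 3 in 9.32% and 4.68%. Without shared barcodes these were 69.1% and 30.3% for at least 1, and 8.32% and 0 of 132 (up to 2.27%) for at least 3. By comparison, 1 of 140 shPml neutrophils and 1 of 53 shPml B cells held any member.

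The members were spread over the cells to different degrees. Of the 434 Gzma UMIs in shPml CD8 T cells, the 71 cells with most held 97.0%, and 14 cells were enough for 50% of them. The leading 71 cells held 63.0% of Gzmb UMIs, where 45 cells made up 50%, and 35.2% of Nkg7 UMIs, where 124 cells did. Without shared barcodes the leading 55 of 541 cells held all 172 Gzma UMIs, 61.8% of Gzmb UMIs and 33.3% of Nkg7 UMIs. Cells with Gzma held 5.17 Gzma UMIs each, cells with Gzmb 3.71 Gzmb UMIs, and cells with Prf1 1.29 Prf1 UMIs. The single cell with most Gzma held 16.1% of all Gzma UMIs of the class, and without the top cell of each class the Gzma log2 ratio between the groups was 2.34.

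**Figure D5:**
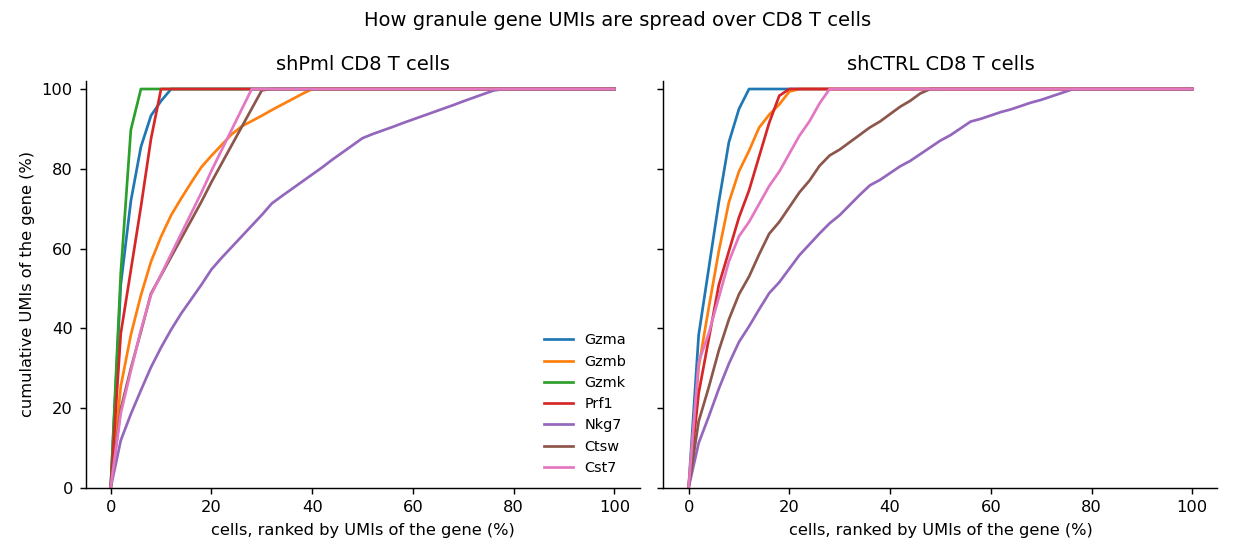
Cumulative share of a gene's UMIs (percent) over CD8 T cells ranked by their UMIs of that gene (percent of cells), in the shPml library (left) and the shCTRL library (right; Gzmk is left out there for its 4 UMIs). The Gzma curve climbs most steeply of the genes with over 100 UMIs in shPml, with 97.0% in the leading 71 cells, and the Nkg7 curve least, with 35.2%.

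Regulatory T cells, which restrain other T cells, held Gzmb without Gzma. They held 55 Gzmb UMIs in 6 of 17 shPml cells and 53 in 6 of 36 shCTRL cells, or 673 against 234 CPM (log2 1.52, 0.95 to 2.09). Of those 55 UMIs, 35 came from 1 cell. Without shared barcodes the levels were 722 and 196 CPM (log2 1.88, 1.13 to 2.68), where 1 cell of each library held 35 of 55 and 18 of 21 UMIs. Nkg7 stood at 36.7 against 92.9 CPM (log2 -1.34, -3.73 to 0.40) and Cst7 at 73.4 against 111 CPM (log2 -0.59, -2.17 to 0.73), both with intervals that hold 0. Without shared barcodes Nkg7 had 3 and 4 UMIs (39.4 against 37.3 CPM) and Cst7 had 6 and 1 (78.8 against 9.33 CPM), so the direction of Cst7 turned. Of 3 members with 20 UMIs or more, 1 was 2-fold or more higher (8.12% of 2413 genes) and 1 lower (8.87%). Compared with CD4 T cells of the same library, Gzmb in regulatory T cells was higher in both, at log2 3.11 (2.21 to 4.10) in shPml and 2.81 (2.17 to 3.46) in shCTRL. Without shared barcodes these were 2.73 (1.84 to 3.73) and 3.61 (2.58 to 4.67). CD4 T cells outside the regulatory class held Gzmb at 78.2 CPM in shPml and 33.5 CPM in shCTRL (log2 1.22, 0.18 to 2.17). There 12 of the 13 shPml UMIs came from 1 cell. Of 4 members in CD4 T cells 1 was 2-fold or more higher, beside 10.8% of 5995 genes, and the median was 0.30. Without shared barcodes 3 of 4 were, beside 8.57% of 5320 genes, and the median was 1.34.

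T cells with neither or both co-receptors held Gzmb at 704 CPM (437 UMIs) in shPml and 107 CPM in shCTRL, with 137 of the 437 UMIs in the barcode described next. Without shared barcodes the levels were 538 CPM (477 to 605) and 61.9 CPM (43.8 to 84.9), a log2 ratio of 3.12 (2.63 to 3.65). Over all its cells, this class held neutrophil markers at 28152 CPM in shPml and 5061 CPM in shCTRL. NK markers stood there at 666 and 326 CPM. The part of this mix of cells in the Gzmb difference was not tested. NK cells could be described only through the 3 shPml and 9 shCTRL cells of the gate with an NK receptor UMI. There, Gzmb stood at 960 CPM (559 to 1536; 17 UMIs) and 985 CPM (713 to 1326; 43 UMIs). Prf1 stood at 395 CPM (159 to 814) and 641 CPM (426 to 927). Gzma stood at 5475 CPM (4440 to 6679) and 4488 CPM (3882 to 5163). All 3 pairs of intervals overlapped, and 3 of the 9 shCTRL cells had a shared barcode. Single cells weighed heavily here. Of the 97 shPml Gzma UMIs 54 came from 1 cell, as did 114 of the 196 shCTRL ones and 12 of the 17 shPml Gzmb UMIs. The counting intervals do not cover the spread between so few cells.

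Gzmc, Gzmd and Gzmf, granzymes of the chromosome 14 block, were limited to a handful of barcodes. Gzmc had 881 UMIs in 9 of 2268 shPml barcodes, and 691 of them were in 1 barcode of the T class with neither or both co-receptors. That barcode held 39832 UMIs, with Ncr1 at 10, Klra7 at 31 and Tyrobp at 40 UMIs, Cd3g at 8, Trdc at 8 and Cd3d, Cd3e and Trac at 0, and so had more NK than T marker UMIs. It also held 70 Gzmd, 137 Gzmb and 95 Prf1 UMIs. A second cell, in the NK gate, held 179 Gzmc and 88 Gzmd UMIs but 2 Gzmb UMIs. In the shCTRL library Gzmc had 30 UMIs in 4 barcodes, and 19 of them sat in the copy of the large shPml barcode. Gzmf had 1 UMI in all, in a barcode over the mitochondrial limit. The transcripts of Gzmd and Gzme are 93.75% identical over 928 aligned bases, and those of Gzmd and Gzmf 86.2%, so the counting could split reads between them and Gzmd and Gzmf values are uncertain. Gzmc differs more, at 74.7% from Gzmd.

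Other genes of the killing programme were compared in CD8 T cells, all cells first. Of 15 genes for granule formation and release, 14 had enough UMIs, 3 were 2-fold or more higher in shPml and 0 lower, beside 12.2% and 10.1% of all genes, with a median log2 ratio of 0.58. The 3 were the fusion gene Stx11 (log2 1.35, 0.69 to 2.07), Igf2r (1.21, 0.40 to 2.07), a receptor that sorts granzymes, and the SNARE gene Vamp8 (1.05, 0.68 to 1.43). Ctsc, whose protease activates progranzymes, stood at 0.99 (0.58 to 1.42), the granule proteoglycan gene Srgn at 0.62 (0.49 to 0.74), and Lyst, of lysosome traffic, at -0.75 (-1.34 to -0.18). Without shared barcodes 5 of 13 were 2-fold or more higher, beside 17.9% of all genes.

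Of 8 death ligands and effector cytokines 6 were 2-fold or more higher and 0 lower, against the same 12.2% and 10.1% of all genes. The chemokine gene Ccl5 stood at 5309 against 930 CPM (log2 2.51, 2.41 to 2.62) and Xcl1 at 873 against 251 CPM (log2 1.80, 1.60 to 2.01). The interferon gene Ifng stood at log2 1.37 (1.01 to 1.75) and the death ligand gene Fasl at 2.15 (1.24 to 3.17). The granzyme inhibitor genes Serpinb9 (log2 1.51, 1.12 to 1.91) and Serpinb6b (1.93, 1.57 to 2.31), which shield the killer cell, were both higher, 2 of 2 with enough UMIs. Of 8 transcription factors of the cytotoxic programme 4 were 2-fold or more higher, with Bhlhe40 at 1.71 (1.43 to 1.99), and 1, Eomes, lower (-1.04, -1.73 to -0.38). Without shared barcodes Eomes stood at -0.64 (-1.46 to 0.16). These shares too stand beside 12.2% and 10.1% of all genes. Among other granzymes, Gzmm had 9 and 22 UMIs (log2 -1.56, -2.86 to -0.38), and Gzme, Gzmg and Gzmn had 0 in CD8 T cells. The 5 myeloid protease genes next to Gzmb, such as Ctsg and Cma1, also had 0 UMIs there.

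The medians of these 4 lists lay nearer 0 among cells with an inhibitory receptor UMI, where 7.68% of all genes were 2-fold or more higher and 6.44% lower. Of the 42 shCTRL cells of this set 37 had a shared barcode and 5 did not. On the shCTRL side these medians therefore rest mostly on shared barcodes. There 0 of 12 genes of granule formation and release were 2-fold higher (median log2 ratio -0.19), 0 of 2 granzyme inhibitors (median 0.18) and 0 of 7 transcription factors (median 0.05, with 1 lower). Serpinb9 stood at -0.20 (-0.72 to 0.33) and Serpinb6b at 0.57 (0.07 to 1.11). Death ligands and effector cytokines had 4 of 6 higher and a median of 1.26, with Ccl5 at 1.86 (1.65 to 2.08). In Xist CD8 T cells that list had 1 of 5 higher, beside 8.21% of all genes, and a median of -0.66.

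The genes whose levels ran most like a member's were taken over 12 points, each a cell class of 1 library with at least 20 cells, on log2(CPM + 10). Points of 1 library share depth and handling. Gzma ran most like Klre1 (Pearson r 0.99), Klrc2 (0.96) and Sytl3 (0.95), the first 2 of which encode NK receptors. Gzmb ran most like Hsdl2 (0.96), Nkg7 (0.95) and the co-stimulatory receptor gene Tnfrsf9 (0.95). Prf1 ran most like Klrc2 (0.94), Serpinb6b (0.93) and Klrk1 (0.93), and Nkg7 most like Ctla2a, Abcb1b and Gzmb (0.95 each). Gzmk, with 56 UMIs over the points, ran most like the Y-linked gene Eif2s3y (0.997). Its UMIs came only from CD8 T cells of both libraries and shPml T cells with neither or both co-receptors, classes that also held Y-linked UMIs. All other points were tied at the lowest value, so this r rests on few points. Between members, r was 0.90 for Gzma and Prf1 and 0.73 for Gzma and Gzmb.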

How the data were processed

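Sorted CD45-positive cells of 1 shPml and 1 shCTRL library were analysed. The authors deposited a matrix of UMI counts per library, whole numbers without normalization, and per the file headers these come from Cell Ranger 4.0.0. Listed in the submitters' processing notes are mm10, R 4.3.3 and Seurat 4.4.0. The lowest barcode total was 500 UMIs in both matrices (4227187 and 5044925 UMIs in all).

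Cells were kept if 200 or more genes were detected and mitochondrial UMIs made up 10% or less, and Scrublet (scanpy 1.11.5, 20 principal components) removed 5 and 6 doublets. The mitochondrial limit took 514 shPml and 1388 shCTRL barcodes. Classes were gates on UMIs of marker genes. Neutrophils had S100a8 and S100a9 at 1% of UMIs or more with Csf3r, and B cells at least 2 UMIs of Cd79a, Cd79b and Ms4a1. Levels are summed UMIs with exact Poisson intervals, shares have Clopper-Pearson intervals, and ratios exact conditional Poisson intervals, all at 95% (scipy 1.17.1). For a difference between shares, the distances to the Clopper-Pearson limits were joined as the root of their summed squares, which is approximate. A gene entered medians and counts with at least 20 summed UMIs, and a count of 0 was set to a floor of 3 over the class. With 1 library per group, no test was run.

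Named genes were all 10 members, the members of 6 pathway lists past 2-fold with the largest interval bound, and the 3 genes most like each of 5 members. Ctsc, Srgn, Lyst, Ifng, Fasl and Xcl1 were added after their values were seen. The members and lists were chosen with earlier results of these data known. On simulated counts for CD8 T cells (7278 genes), intervals held the true ratio for 95.6% of 45 genes raised 2-fold and 96.2% of 7080 unchanged genes. The simulated counts were Poisson draws, which is what the intervals assume. They leave out the clumping of UMIs in single cells, so they cannot show whether the intervals are wide enough for it. In all, 14 alternatives and 3 more chosen after seeing the data were tried. Promoters came from RefSeq and positions from GENCODE. Protein sequences were not used here. A split of CD8 T cells by naive state is not reported here.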

Additional observations from a re-analysis of the deposited data

Results flagged for a closer look

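In CD8 T cells the log2 ratio of Nkg7, shPml over shCTRL, was 1.14, and in regulatory T cells it was -1.34. The ratio of Cst7 was 1.03 in CD8 T cells and -0.59 in regulatory T cells. The difference between the classes was not tested, and the intervals in regulatory T cells (3 and 21 UMIs for Nkg7, 6 and 25 for Cst7) hold 0. Without shared barcodes the opposite direction was not seen, with Nkg7 in regulatory T cells at 39.4 against 37.3 CPM (3 and 4 UMIs) and Cst7 at 78.8 against 9.33 CPM (6 and 1 UMIs).

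Barcodes over the mitochondrial limit were left out of the results above, apart from the Gzmc and Gzmf counts over all barcodes. Those that met the CD8 T gate held granule transcripts too. In 53 such shPml barcodes, 2 of them shared, Gzma stood at 2321 CPM, Gzmb at 808 CPM, Nkg7 at 1844 CPM and Cst7 at 332 CPM. The 124 such shCTRL barcodes, 0 of them shared, held Gzma at 35.2 CPM, Gzmb at 0 UMIs (up to 17.6 CPM by the floor of 3), Nkg7 at 317 CPM and Cst7 at 76.2 CPM. Of the 112 Gzma UMIs in the shPml barcodes 59 came from 1 barcode, and of the 39 Gzmb UMIs, found in 8 barcodes, 16 came from 1. Prf1 lay closer, at 145 CPM (58.3 to 299) and 93.8 CPM (53.6 to 152), as did Ctsw, at 435 CPM (269 to 665) and 293 CPM (218 to 387). Gzmb was thus higher in the shPml barcodes, as in the kept cells, with a count that rests on 8 barcodes.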

How the results depend on the processing

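No paired analysis was possible because there was 1 library per group. Each alternative changed 1 choice. Of the values that answer a comparison, 81 stayed within the range of the main value and 17 fell outside it. For a median, that range runs from the median of the members' lower limits to the median of their upper limits. It is not a counting interval of the median, so these counts do not measure stability within counting error. The CD8 T member median of 1.14 became 1.48 with a limit of 5% mitochondrial UMIs, 1.78 without shared barcodes, 1.37 with shared barcodes kept where they have more UMIs, 0.55 in cells with an inhibitory receptor UMI and 1.205 in cells without. The last 3 of these were chosen after seeing the data. The CD4 T median of 0.30 became 1.34 without shared barcodes. The regulatory T median of -0.59, over 3 genes, became 1.88 without shared barcodes, 1.52 with at least 50 UMIs per gene and 2.29 without cells holding UMIs of other cell types, each over Gzmb alone. The gap in the Gzmb share of CD8 T cells, 13.1 percentage points, became 19.6 at the 5% limit, 23.5 without shared barcodes, 21.6 at 1000 UMIs, 19.4 without thinning and 27.1 with shared barcodes kept where they have more UMIs. The median for cycling cells became -0.25 without shared barcodes. The median for Y-linked over Xist cells, -0.23, became 0.92 without shared barcodes, 0.82 without the top cell and 1.10 without cells holding UMIs of other cell types. Of the single genes, 25 values fell outside the counting interval of the main value and 76 did not. A further 4 values could not be given for lack of UMIs, such as Gzmk in cells with an inhibitory receptor UMI. Low UMI counts limit Gzmk and Prf1, and low cell numbers limit regulatory T and NK cells.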
